A study of Mus musculus with 6 samples.

Results

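The 10 CC chemokine genes described here, Ccl2, Ccl3, Ccl4, Ccl5, Ccl6, Ccl7, Ccl8, Ccl9, Ccl12 and Ccl24, are the ligands that inflammatory monocytes, macrophages and dendritic cells release. They were found in the count table by matching its Ensembl mouse gene identifiers to these symbols in the GENCODE annotation. All 10 had a row among the 26519 genes of the table, and all 10 passed the filter on low counts that left 12580 genes to test. RNA was sequenced from tumour-infiltrating dendritic cells of mice bearing MC38 tumours, a mouse colon carcinoma line. There were 3 libraries from MAVS knockout hosts and 3 from wild-type (WT) hosts, all taken 10 days after the tumour cells were inoculated, and the tumour line was the same in both genotypes. The comparison asks what host MAVS, the mitochondrial adaptor of the RIG-I-like RNA sensors, does to dendritic cells within the tumour. The labels state neither strain, sex and age nor the deleted part of Mavs, the sort gate, or whether a library came from 1 animal or a pool, so p-values measure the spread between these samples, which may be technical.

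CC chemokines are small secreted proteins with a pair of adjacent cysteines near the amino end. They bind G protein-coupled receptors on leukocytes and steer their migration. In tumours, Ccr2 ligands bring in monocytes, Ccr1 ligands bring in monocytes and dendritic cells, Ccl5 also attracts T cells, and the Ccr3 ligand Ccl24 attracts eosinophils.

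Totals were 14466640 to 18862534 counts in MAVS knockout libraries and 17357031 to 20851733 counts in WT libraries. Mavs (ENSMUSG00000037523, chromosome 2, 131234063 to 131248025 in mm10) had 8.99, 12.8 and 9.45 CPM in MAVS knockout libraries, against 33.9, 39.7 and 39.7 CPM in WT libraries. The 2 groups did not overlap for Mavs. CPM is the count scaled to library size, here with edgeR's trimmed mean of M-values (TMM). The labelled cell type was checked against 18 markers of conventional dendritic cells: 6 fell in MAVS knockout libraries (Flt3, Zbtb46, Kit, Xcr1, Itgae and Cd209a), Ccr7 rose and 11 did not pass. The list's summed level was 33972.5 to 43913 CPM in MAVS knockout libraries and 30666 to 37694 CPM in WT libraries, nearly all of it H2-Ab1 and Cd74. The other 16 markers summed to 1094 to 1169 CPM in MAVS knockout libraries and 1090 to 1482 CPM in WT libraries. Of these, Irf8 and Itgax had the highest levels, and neither passed. Irf8 had 431, 428 and 450.1 CPM in MAVS knockout libraries, against 300.4, 296 and 537 CPM in WT libraries. Itgax had 286, 275 and 318 CPM in MAVS knockout libraries, against 217, 272 and 247 CPM in WT libraries. Of the 18 markers, 8 were lower in every MAVS knockout library and 3 higher, beside 10.6% and 11.2% of tested genes. Zbtb46 and Itgae each lost their call in 5 of the 6 fits without 1 library, all but that without WT replicate 1, Kit without MAVS knockout replicate 1 or 3, and Flt3 without MAVS knockout replicate 1. Macrophage transcripts were abundant beside them, with the lysozyme gene Lyz2 at 22105 ± 4494 CPM in MAVS knockout libraries and 21636 ± 2363 CPM in WT libraries (SD, n = 3 each).

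The coding stretches around the adjacent cysteine codons, in capitals, are shown for 5 members. These are the neighbours Ccl6 and Ccl9, of which Ccl6 alone passed the test, Ccl24, and the Ccr2 ligands Ccl2 and Ccl12. The stretches are read 5′ to 3′ on the coding strand from GENCODE transcripts.
Ccl6: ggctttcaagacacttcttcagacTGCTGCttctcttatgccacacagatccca
Ccl9: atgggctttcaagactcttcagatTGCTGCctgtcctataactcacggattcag
Ccl24: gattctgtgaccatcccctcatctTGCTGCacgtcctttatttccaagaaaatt
Ccl2: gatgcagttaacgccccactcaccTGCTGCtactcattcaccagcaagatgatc
Ccl12: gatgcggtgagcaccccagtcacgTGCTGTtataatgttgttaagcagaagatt
The closest pair of the 10 coding sequences was Ccl3 and Ccl4, identical at 68.4% of aligned positions, and Ccl6 and Ccl9 were identical at 64.6%. No run of 50 bases in the transcripts of a member occurred in a transcript of another member. Ccl9 was the sole member to share such runs with any other gene, at 1.97% of its 50-base runs.

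Ccl6 and Ccl24 rose in MAVS knockout hosts, and the other 8 members did not pass the test. Those 2 of 10 stand beside a background of 2.81% of tested genes called in either direction and 1.76% called higher, and no member was lower, against 1.05% of tested genes. With library size alone, which calls the same 2 members, 0.811% of tested genes were called higher and 2.71% lower. The fitted log2 fold change was above 0 for all 10 members, against 49.6% of all tested genes, but with library size alone as the scaling that of Ccl9 turned to -0.025. Its median was 0.46 over the members and -0.0022 over all tested genes. In 5 members (Ccl4, Ccl5, Ccl6, Ccl12 and Ccl24) every MAVS knockout library stood above every WT library, as did 11.2% of tested genes. An unadjusted p below 0.05 was reached by 6 members, all higher, against 8.46% of tested genes that were higher at that level. These are RNA levels of bulk samples, in which more cells of a type and more RNA per cell cannot be told apart.

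**Figure D1:**
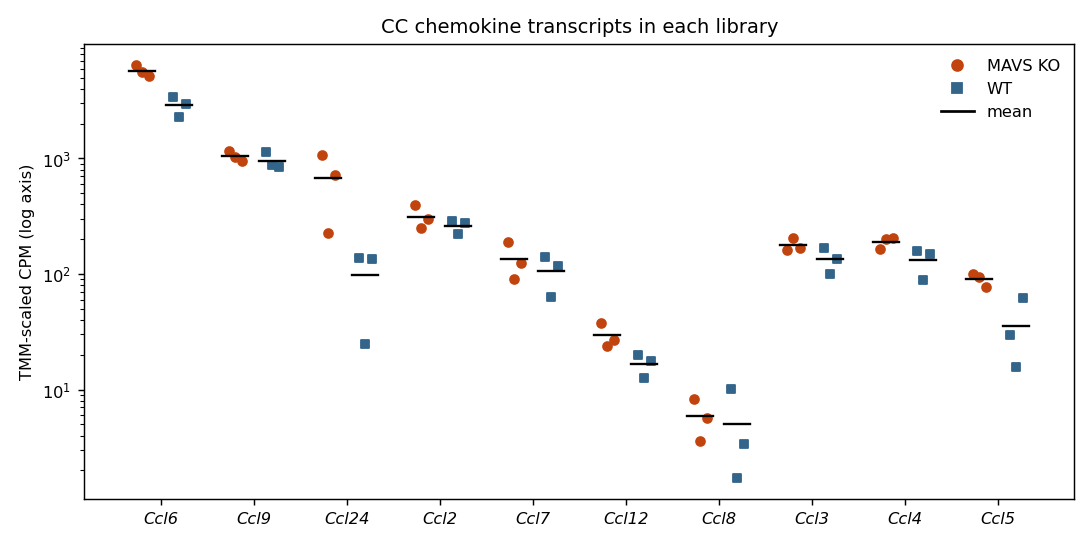
TMM-scaled CPM on a log axis of each of the 10 CC chemokines in the 3 MAVS knockout libraries (circles) and the 3 WT libraries (squares), with the group mean as a line. Ccl6 lies between 5150.0 and 6485 CPM in MAVS knockout libraries and between 2294 and 3390.0 CPM in WT libraries, and Ccl24 spreads widely within each group.

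Ccl6 and Ccl9 act through Ccr1 in mice and are made in quantity by myeloid cells. Ccl6 (ENSMUSG00000018927, chromosome 11, 83587882 to 83593087, minus strand, mm10) had 6485, 5606 and 5150.0 CPM in MAVS knockout libraries, against 3390.0, 2294 and 2989 CPM in WT libraries. The lowest MAVS knockout library exceeded the highest WT library by a wide margin. Its log2 fold change was 0.99 (SE 0.14, 95% interval 0.68 to 1.31), a 1.99-fold rise, with an edgeR adjusted p of 0.0126. It took 0.612%, 0.526% and 0.486% of all counts in MAVS knockout libraries, against 0.358%, 0.248% and 0.311% in WT libraries, and ranked 23 among all genes by mean CPM. Leaving out each library in turn gave log2 fold changes of 0.84 to 1.11; without MAVS knockout replicate 1 the edgeR adjusted p was 0.0505, and it was 0.0461 or less in the other 5 fits.

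Ccl9 (ENSMUSG00000019122, chromosome 11, 83572919 to 83578636, minus strand) lies 9.25 kb from Ccl6 and did not pass. It had 1160.2, 1039 and 945 CPM in MAVS knockout libraries, against 1134, 871 and 839 CPM in WT libraries. The groups overlapped, and the log2 fold change was 0.14 with a 95% interval of -0.15 to 0.44 (edgeR adjusted p = 0.673). Within a library there were 5.59, 5.40 and 5.45 Ccl6 counts per Ccl9 count in MAVS knockout hosts, against 2.99, 2.63 and 3.56 in WT hosts. The ratio differed by 0.85 on the log2 scale, higher in 3 of 3 MAVS knockout libraries (exact permutation test, two-sided, p = 0.1, the smallest that 3 against 3 can give). This ratio was 1 of 4 computed, all chosen after the values were seen, and its p adjusted over the 4 was 0.2.

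The 250 bases before the start sites of Ccl6 and Ccl9 are shown because, of these neighbours, Ccl6 passed and Ccl9 did not. They come from the RefSeq promoter table on GRCm38.p6, on the minus strand, at chr11:83593088-83593337 for Ccl6 and chr11:83578637-83578886 for Ccl9; the table matched 5 of the 10 members (Ccl3, Ccl6, Ccl8, Ccl9 and Ccl12). Capitals mark a match on either strand to the NF-kB-like letters GGNNTTTCC.
Ccl6: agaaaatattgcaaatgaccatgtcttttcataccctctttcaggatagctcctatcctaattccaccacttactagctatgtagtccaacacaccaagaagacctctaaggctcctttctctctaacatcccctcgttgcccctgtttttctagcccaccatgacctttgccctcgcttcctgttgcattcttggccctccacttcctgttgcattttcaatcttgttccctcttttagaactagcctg
Ccl9: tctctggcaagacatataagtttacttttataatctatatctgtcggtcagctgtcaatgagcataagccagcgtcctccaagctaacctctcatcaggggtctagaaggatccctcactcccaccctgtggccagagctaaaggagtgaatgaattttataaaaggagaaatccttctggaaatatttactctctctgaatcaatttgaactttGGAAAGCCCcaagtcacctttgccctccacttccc
Of the 5 windows, that of Ccl9 held the 1 NF-kB-like match, on the minus strand of the window, 35 to 27 bases before the start site. Such a match occurred in 4.93% of 32851 promoters of the same length. The interferon-response letters GAAANNGAA occurred once, before Ccl3, and in 7.13% of promoters. Neither the STAT letters TTCNNNGAA (7.02% of promoters) nor the STAT6 arrangement of TTC and GAA with 4 bases between them (5.85%) occurred in any of the 5 windows. These are matches of letters in short windows and say nothing of whether a factor binds.

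Ccl24, the eosinophil attractant that acts through Ccr3 and that macrophages make after interleukin-4 signalling, had the largest fitted change of the 10. Ccl24 (ENSMUSG00000004814, chromosome 5, 135569937 to 135573049, minus strand) had 1079.5, 226 and 722 CPM in MAVS knockout libraries, against 138, 25.0 and 134 CPM in WT libraries. Every MAVS knockout library stood above every WT library, and replicate 2 was the lowest library of both groups. The log2 fold change was 2.77 (SE 0.63, 95% interval 1.37 to 4.17), a 6.83-fold rise, with an edgeR adjusted p of 0.0464. Larger log2 fold changes were found for 0.0874% of tested genes. The call was kept without MAVS knockout replicate 2 (edgeR adjusted p = 0.0445) and lost in each of the other 5 fits that left out a library, with edgeR adjusted p from 0.0604 to 0.157. It was also lost with robust dispersion estimation (edgeR adjusted p = 0.229) and with limma-voom (adjusted p = 0.0503).

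The 3 protein-coding genes whose pattern was most like that of Ccl24 were Chil3, Rnase2a and Car4, among 8790 candidates with a mean of at least 5 CPM. Likeness was the root mean square difference of log2(CPM + 1), centred on each gene's own mean, over the 6 libraries, and it was 0.351, 0.437 and 0.571. Chil3, a chitinase-like lectin, had 12484, 3237 and 6437 CPM in MAVS knockout libraries, against 1669.9, 515 and 1849.7 CPM in WT libraries. Replicate 2 was again the lowest of both groups for Chil3. Its call was lost in 5 of the 6 fits without 1 library, all but that without MAVS knockout replicate 2 (edgeR adjusted p 0.0581 to 0.120), and with robust dispersion (0.192). Rnase2a, a ribonuclease of the eosinophil-associated family, did not pass (edgeR adjusted p = 0.145), whereas Car4, a carbonic anhydrase, rose by 2.31 (edgeR adjusted p = 0.023). Without MAVS knockout replicate 1 or 3 the call of Car4 was lost (edgeR adjusted p 0.077 and 0.0909). For Ccl6 the most alike were the death receptor gene Fas, the CD200 receptor family gene Cd200r4 and the haem oxygenase gene Hmox1, at 0.0985, 0.102 and 0.105. Fas had 24.9, 25.2 and 21.8 CPM in MAVS knockout libraries, against 14.7, 10.5 and 12.2 CPM in WT libraries. The genotype difference is itself part of every such pattern.

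**Figure D2:**
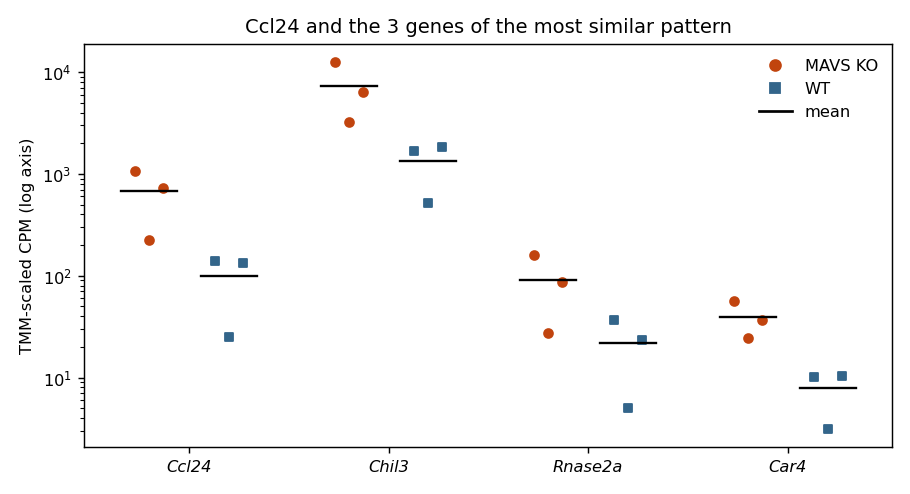
TMM-scaled CPM on a log axis of Ccl24, Chil3, Rnase2a and Car4 in each MAVS knockout library (circles) and WT library (squares), left to right in replicate order, with group means as lines. Within both groups replicate 2 is the lowest library for all 4 genes.

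Markers of eosinophils, the cells Ccl24 attracts, were near the floor in both groups. Their 7 genes summed to 1.57 to 6.10 CPM in MAVS knockout libraries and 4.10 to 13.2 CPM in WT libraries. Ccr3, the receptor, had 5, 0 and 7 counts in MAVS knockout libraries and 10, 11 and 2 counts in WT libraries, and the granule gene Epx had 5, 0 and 0 counts against 0 in each WT library. Siglecf, a lectin of eosinophils and some macrophages, was the sole tested gene of that list and did not pass (3.18 ± 2.64 CPM in MAVS knockout and 7.04 ± 4.57 CPM in WT libraries, SD, n = 3 each). Of 17 genes linked to STAT6, the factor downstream of interleukin-4, 4 rose (Arg1, Chil3, Ccl22 and Tgm2), Cd209a fell and 12 did not pass. The median log2 fold change of that list was 0.49. Arg1 and Cd209a kept their calls in all 14 alternative fits, and Tgm2 lost its call with library size alone and in 5 of the 6 fits without 1 library, all but that without WT replicate 3 (edgeR adjusted p 0.0665 to 0.172). Arg1, the arginine-degrading enzyme, had 12659, 10457 and 10923 CPM in MAVS knockout libraries, against 5400.3, 4661 and 6802 CPM in WT libraries. Retnla, another gene of that response, was not called, at 122, 31.2 and 74.7 CPM in MAVS knockout libraries and 539, 30.7 and 58.7 CPM in WT libraries.

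The monocyte attractants Ccl2, Ccl7 and Ccl12, which act through Ccr2, and Ccl8, which acts through Ccr8 in mice, lie within 81.2 kb of each other on chromosome 11, and none of the 4 passed. Ccl2 (ENSMUSG00000035385, 82035571 to 82037453) had 395, 250.3 and 297 CPM in MAVS knockout libraries, against 287, 221 and 274 CPM in WT libraries. The groups overlapped for Ccl2, with a log2 fold change of 0.27 (95% interval -0.10 to 0.64, edgeR adjusted p = 0.494). Ccl7 (82045712 to 82047525) had 190.3, 89.7 and 124 CPM in MAVS knockout libraries, against 140.3, 63.6 and 118 CPM in WT libraries. It overlapped as well, with a log2 fold change of 0.33 (95% interval -0.34 to 0.99, edgeR adjusted p = 0.674), and its value without MAVS knockout replicate 1 was -0.01. Ccl8 (82115185 to 82116799) was the scarcest member, at 8.37, 3.62 and 5.64 CPM in MAVS knockout libraries and 10.05, 1.71 and 3.36 CPM in WT libraries. Its 95% interval of -1.02 to 1.46 around a log2 fold change of 0.22 spans a change of over 2-fold in both directions.

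Ccl12 (ENSMUSG00000035352, 82101845 to 82103400) was the 1 of these 4 whose groups did not overlap. It had 37.8, 23.9 and 26.6 CPM in MAVS knockout libraries, against 19.96, 12.5 and 17.7 CPM in WT libraries. No library of one group reached into the other, but the gene did not pass, with a log2 fold change of 0.81 (SE 0.23, 95% interval 0.31 to 1.32, edgeR adjusted p = 0.0949). It passed with the DESeq2 Wald test (adjusted p = 0.0152), and over the alternatives its adjusted p was 0.00179 to 0.263. There were 0.0956, 0.0954 and 0.0894 Ccl12 counts per Ccl2 count in MAVS knockout libraries, against 0.0696, 0.0565 and 0.0647 in WT libraries (exact permutation test, two-sided, p = 0.1, adjusted over the 4 ratios 0.2). The Ccl7 to Ccl2 ratio was 0.481, 0.358 and 0.417 in MAVS knockout libraries, against 0.489, 0.287 and 0.429 in WT libraries, and overlapped (exact permutation test, two-sided, p = 0.9). Summing Ccl2, Ccl7, Ccl8 and Ccl12 into 1 feature gave a log2 fold change of 0.31 (95% interval -0.13 to 0.76, edgeR adjusted p = 0.515).

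Ccl3, Ccl4 and Ccl5 attract T cells and myeloid cells, and Ccl3 and Ccl5 bind Ccr1. None of the 3 passed. Ccl5 (ENSMUSG00000035042, chromosome 11, 83525778 to 83530518, minus strand), an attractant of T cells and dendritic cells, had 100.4, 94.6 and 76.5 CPM in MAVS knockout libraries, against 29.6, 15.8 and 61.9 CPM in WT libraries. The groups did not overlap, but the WT libraries differed 3.91-fold among themselves. Ccl5 did not pass, with a log2 fold change of 1.34 (SE 0.37, 95% interval 0.51 to 2.16, edgeR adjusted p = 0.0962). Without WT replicate 3, the highest WT library, its log2 fold change was 1.995 and it passed (edgeR adjusted p = 0.00847), and it passed with limma-voom (adjusted p = 0.048); over all its alternatives the adjusted p reached 0.238. T and natural killer cells also make Ccl5. None of 15 markers of those cells passed, their summed level was 55.1 to 87.2 CPM in MAVS knockout libraries and 45.6 to 93.6 CPM in WT libraries, and every one had counts in some library. They did not move one way, with a log2 fold change above 0 for 11 of the 15 and a median of 0.27. Cd2, the adhesion molecule with the smallest p of the list, was lower in every MAVS knockout library, at 13.4, 14.9 and 12.5 CPM in MAVS knockout libraries and 34.1, 20.7 and 20.4 CPM in WT libraries (edgeR adjusted p = 0.0687). Cd8a, the co-receptor of cytotoxic T cells, was higher in every one, at 1.40, 2.82 and 3.22 CPM in MAVS knockout libraries and 0.493, 0.0534 and 1.29 CPM in WT libraries (edgeR adjusted p = 0.251), as was Cd8b1. Nkg7, a gene of cytotoxic granules, overlapped, at 9.83, 15.6 and 20.4 CPM in MAVS knockout libraries and 9.91, 2.67 and 9.21 CPM in WT libraries. Prf1, also on the list, overlapped too, with a log2 fold change of 1.20 (edgeR adjusted p = 0.333). The part of these cells in the Ccl5 values was not tested.

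Ccl4 (ENSMUSG00000018930, chromosome 11, 83662584 to 83664683) had 165, 199 and 203 CPM in MAVS knockout libraries, against 158, 88.9 and 149.6 CPM in WT libraries. Its groups were separate by a small margin, and the log2 fold change of 0.52 (95% interval 0.09 to 0.95) did not pass (edgeR adjusted p = 0.217). Ccl3 (ENSMUSG00000000982, chromosome 11, 83647844 to 83649355, minus strand) had 162, 204 and 167 CPM in MAVS knockout libraries, against 168, 101 and 135 CPM in WT libraries. The groups overlapped, and the log2 fold change was 0.40 (95% interval 0.01 to 0.78, edgeR adjusted p = 0.302). Ccl3 and Ccl4 stayed close to 1 count to 1, at 0.98, 1.02 and 0.821 in MAVS knockout libraries and 1.06, 1.13 and 0.903 in WT libraries (exact permutation test, two-sided, p = 0.4). Their summed counts changed by 0.46 on the log2 scale (95% interval 0.07 to 0.85, edgeR adjusted p = 0.23).

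**Figure D3:**
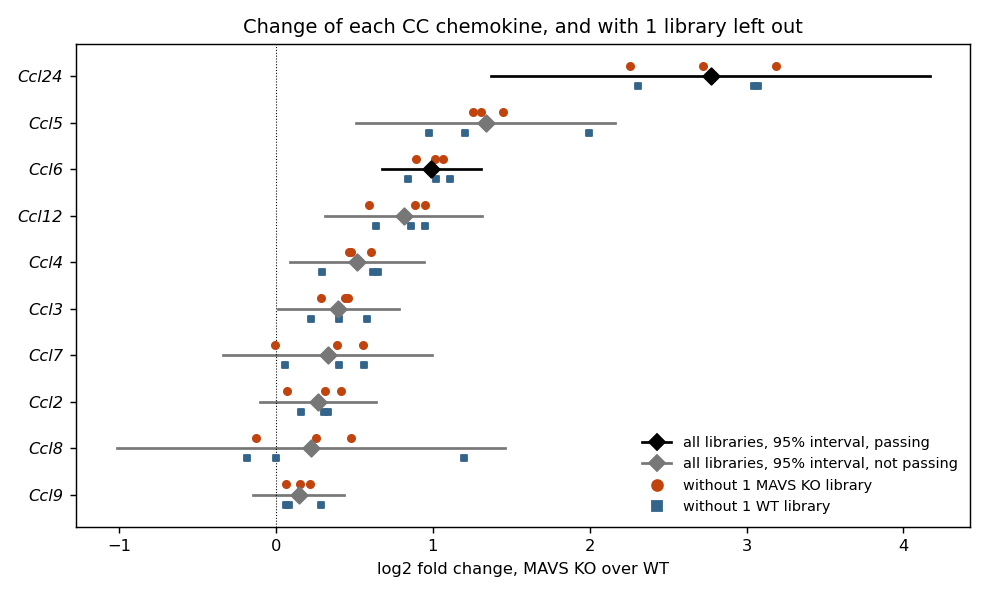
Log2 fold change of MAVS knockout over WT for each of the 10 members, with its 95% interval (diamonds and lines, black where the edgeR adjusted p passed), and the same value with 1 MAVS knockout library (circles) or 1 WT library (squares) left out. Ccl24, at 2.77, ranges from 2.26 to 3.19 with 1 library left out, and Ccl6 from 0.84 to 1.11.

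The members ranked the WT libraries in much the same way. WT replicate 2 was the lowest WT library for 9 of the 10 members, all but Ccl9, and WT replicate 1 was the highest for 9. MAVS knockout replicate 1 was the highest MAVS knockout library for 8 of the 10, while the lowest was replicate 1 for 2 members, replicate 2 for 5 and replicate 3 for 3. Without WT replicate 2 the members' median log2 fold change was 0.26, and without WT replicate 1 it was 0.80. Without Lyz2, which carries most of their sum, the other 12 macrophage markers summed to 9362, 8854 and 9441 CPM in MAVS knockout replicates 1 to 3, against 8428, 7410 and 7828 CPM in WT replicates 1 to 3. These sums did not overlap between the groups, and as for most members WT replicate 1 was the highest WT library and WT replicate 2 the lowest. In the MAVS knockout group the highest sum was in replicate 3, whereas replicate 1 was the highest for 8 of the 10 members. The lowest sum was in replicate 2, as for 5 members. How many of all tested genes share the WT order was not counted. Their part in the members' values was not tested. Monocyte markers without Chil3 summed to 4657 to 5354 CPM in MAVS knockout libraries and 4045 to 5852 CPM in WT libraries.

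Together the 10 members took 0.923%, 0.726% and 0.728% of all counts in MAVS knockout libraries, against 0.578%, 0.399% and 0.492% in WT libraries. Ccl6 made up 66.3% to 72.5% of the members' counts in MAVS knockout libraries and 61.9% to 63.3% in WT libraries. Ccl9 made up 11.9% to 13.4% in MAVS knockout libraries and 17.8% to 23.6% in WT libraries. Ccl24 made up 2.93% to 11.03% in MAVS knockout libraries and 0.676% to 2.83% in WT libraries.

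Levels of different genes were compared as CPM per kb of exon. Ccl6 was the highest member in both groups, at 3202 ± 378 CPM per kb in MAVS knockout libraries and 1611 ± 309 CPM per kb in WT libraries (SD, n = 3 each). In MAVS knockout libraries it was followed by Ccl24 (522 ± 331), Ccl9 (344 ± 35.5), Ccl4 (286 ± 31.6), Ccl2 (276 ± 65.0), Ccl3 (232 ± 29.8), Ccl7 (168 ± 63.8), Ccl5 (94.3 ± 13.01), Ccl12 (54.8 ± 13.7) and Ccl8 (11.5 ± 4.66). In WT libraries it was followed by Ccl9 (311 ± 53.1), Ccl2 (229 ± 30.6), Ccl4 (200.2 ± 57.1), Ccl3 (176 ± 43.7), Ccl7 (134 ± 49.2), Ccl24 (76.4 ± 49.5), Ccl5 (37.2 ± 24.6), Ccl12 (31.2 ± 7.14) and Ccl8 (9.87 ± 8.65). By its mean Ccl24 stood in place 2 in MAVS knockout libraries and in place 7 in WT libraries, but in MAVS knockout replicate 2, at 175 CPM per kb, it was below Ccl9, Ccl4, Ccl3 and Ccl2. In MAVS knockout libraries, the order within a library varied for each step from Ccl4 to Ccl7. It also varied there for Ccl24 against Ccl9, Ccl4, Ccl2 and Ccl3. In WT libraries the order varied for Ccl12 against Ccl5 and Ccl24. Every WT library gave the same order for each step from Ccl2 to Ccl5, although the ranges over libraries overlapped at each. With the length of the main coding transcript in place of all exons, Ccl2 moved ahead of Ccl9 in both groups, to 387 CPM per kb in MAVS knockout libraries and 321 CPM per kb in WT libraries, and ahead of Ccl4 in MAVS knockout libraries. Ccl5 moved to 170.1 CPM per kb in MAVS knockout libraries, just above Ccl7 at 168, and to 67.2 CPM per kb in WT libraries.

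**Figure D4:**
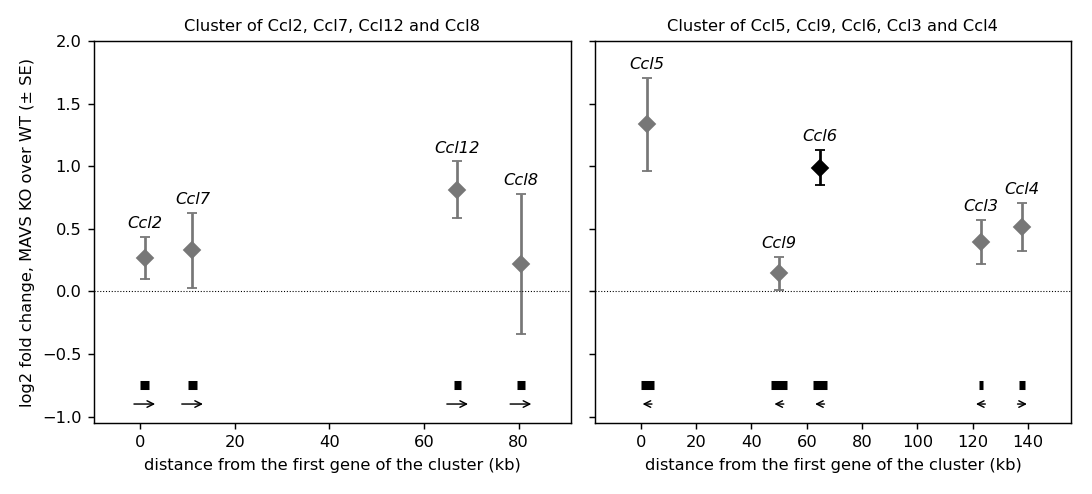
Log2 fold change ± SE of MAVS knockout over WT for the 9 members on chromosome 11, at their distance in kb from the first gene of each of their 2 clusters; bars along the bottom are gene bodies, arrows give the strand, and black marks Ccl6, the 1 of the 9 that passed. Ccl6 at 0.99 and its neighbour Ccl9 at 0.14 lie 9.25 kb apart.

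The 9 members on chromosome 11 form 2 clusters separated by 1409 kb, 1 of 4 members over 81.2 kb and 1 of 5 members over 139 kb. Position did not sort the members by their change. The cluster of 5 held both Ccl6 at 0.99 and Ccl9 at 0.14, and the cluster of 4 held both Ccl12 at 0.81 and Ccl8 at 0.22 on the log2 scale.

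Among the receptors, Ccr1 and Ccr7 rose, and Ccr2 did not pass. Of 14 CC chemokine receptors and related genes listed, 6 were tested, 2 rose, none fell and 4 did not pass, with a median log2 fold change of 0.10. Ccr1 had 901, 947 and 955 CPM in MAVS knockout libraries, against 685, 672 and 654 CPM in WT libraries, and its groups were far apart relative to their spread. Its log2 fold change was 0.48 (SE 0.088, edgeR adjusted p = 0.0244), and with library size alone it was 0.31 and did not pass (edgeR adjusted p = 0.0793).

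Ccr2, the monocyte receptor for Ccl2, Ccl7 and Ccl12, had 1095, 1069 and 1180.2 CPM in MAVS knockout libraries, against 1341, 1226 and 1183 CPM in WT libraries. Every MAVS knockout library was the lower, but the log2 fold change of -0.17 (95% interval -0.37 to 0.04) did not pass (edgeR adjusted p = 0.443). Ccr8, the receptor for Ccl8, had 1.54 ± 0.31 CPM in MAVS knockout libraries and 2.11 ± 0.224 CPM in WT libraries (SD, n = 3 each) and did not pass. Ccr7, the lymph-node homing receptor of mature dendritic cells, had 101.0, 60.2 and 60.9 CPM in MAVS knockout libraries, against 39.4, 27.2 and 35.9 CPM in WT libraries. Ccrl2, a non-signalling receptor that presents chemerin, stood at 646, 689.9 and 635 CPM in MAVS knockout libraries, against 499.8, 542 and 490.3 CPM in WT libraries, without passing (edgeR adjusted p = 0.0727). Ccr1 lost its call without WT replicate 2 or 3 or any MAVS knockout replicate (edgeR adjusted p 0.0516 to 0.122). Ccr7 lost its call without any 1 of the 6 libraries (edgeR adjusted p 0.0508 to 0.0792).

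**Figure D5:**
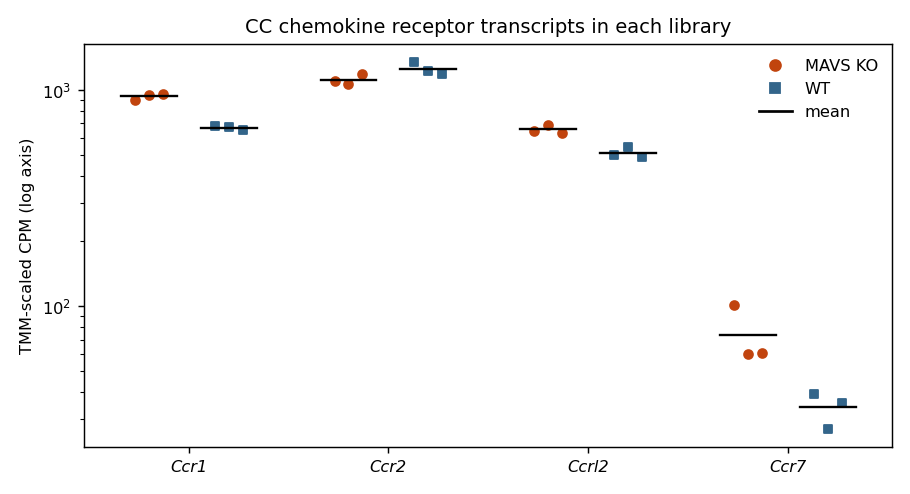
TMM-scaled CPM on a log axis of Ccr1, Ccr2, Ccrl2 and Ccr7 in the 3 MAVS knockout libraries (circles) and the 3 WT libraries (squares), with group means as lines. Ccr1 is higher in every MAVS knockout library, and Ccr2 is lower in every one.

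The rest of the family and its surroundings were read from lists. Of 11 other CC chemokines, 7 had a row, 4 were tested and Ccl22 alone rose. Ccl22, a Ccr4 ligand of mature dendritic cells, had 143, 103 and 73.1 CPM in MAVS knockout libraries, against 58.0, 51.5 and 55.6 CPM in WT libraries (log2 fold change 0.95, edgeR adjusted p = 0.0372). The call for Ccl22 was kept without MAVS knockout replicate 3 and lost without each of the other 5 libraries (0.0817 to 0.117), and with library size alone (edgeR adjusted p = 0.0614). Ccl17, which binds the same receptor, had 444, 310.2 and 400.5 CPM in MAVS knockout libraries, against 331, 322 and 266 CPM in WT libraries and did not pass. Ccl25 and Ccl27a were below 5 CPM on average and did not pass. Of 20 genes of receptor signalling, Elmo1, a partner of the Rac activator Dock2, fell by 0.66 on the log2 scale (edgeR adjusted p = 0.0232), and 19 did not pass. Elmo1 lost its call without WT replicate 2 or any 1 MAVS knockout replicate (edgeR adjusted p 0.0604 to 0.104). Of 7 tested proteases that can trim chemokines, the matrix metalloproteinases Mmp8, Mmp12 and Mmp13 rose and 4 did not pass. The log2 fold change was above 0 for 5 of the 7, but not for Dpp4 and Mmp9. Dpp4 was lower in every MAVS knockout library, at 16.8 to 35.0 CPM, against 42.9 to 62.1 CPM in WT libraries (edgeR adjusted p = 0.0597). Mmp9 overlapped, with a log2 fold change of -2.66 (edgeR adjusted p = 0.173). Mmp13 lost its call without MAVS knockout replicate 1 or 3 (edgeR adjusted p 0.0511 and 0.0507). Mmp12, the macrophage elastase, had 17939, 14714.5 and 13350.3 CPM in MAVS knockout libraries, against 6789, 5345 and 8613 CPM in WT libraries, with no overlap.

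Markers of other cells that could lie in the samples moved in part with these results, and their share in them was not tested. None of 13 macrophage markers passed, 8 stood higher in every MAVS knockout library and Apoe lower in every one, and none was at 0 throughout. Their summed level, 28603 to 36138 CPM in MAVS knockout libraries and 26836 to 32012 CPM in WT libraries, overlapped, but without Lyz2 it did not, at 8854 to 9441 CPM in MAVS knockout libraries and 7410 to 8428 CPM in WT libraries. Of 9 monocyte markers Chil3 rose, and the list summed to 8591 to 17141 CPM in MAVS knockout libraries and 5714 to 6462 CPM in WT libraries, a difference carried by Chil3, whose call depends on the libraries as given above. Of 5 tested neutrophil markers Mmp8 rose, with the 11 genes at 97.6 to 104 CPM in MAVS knockout libraries and 59.2 to 106 CPM in WT libraries. Without Mmp8 and Mmp9 the sum was 35.0 to 35.3 CPM in MAVS knockout libraries and 25.6 to 31.1 CPM in WT libraries, with no overlap. Csf3r carried most of that sum and itself overlapped (edgeR adjusted p = 0.479). It had 25.9, 22.3 and 25.5 CPM in MAVS knockout libraries, against 16.6, 17.9 and 24.9 CPM in WT libraries. The untested genes of the neutrophil list had 3 counts or fewer in every library. Kit, the 1 tested gene of mast cells and basophils, fell, and their summed level was 10.4 to 16.1 CPM in MAVS knockout libraries and 21.6 to 31.6 CPM in WT libraries. Ighm fell among 2 tested B cell markers, and the list summed to 10.2 to 11.96 CPM in MAVS knockout libraries and 31.4 to 52.2 CPM in WT libraries. Of 8 tested fibroblast and endothelial markers Flt1 rose, and the list summed to 156 to 224 CPM in MAVS knockout libraries and 71.6 to 106 CPM in WT libraries. Flt1 lost its call in 4 of the 6 fits without 1 library (WT replicate 1 or 2, MAVS knockout replicate 1 or 3). Without Flt1 and Pecam1 the sums overlapped, at 16.04 to 51.03 CPM in MAVS knockout libraries and 21.1 to 38.4 CPM in WT libraries. Neither of 2 tested tumour epithelial markers, Cdh1 and Epcam, passed. Cdh1 alone had 671, 411 and 505 CPM in MAVS knockout libraries, against 353, 525 and 449 CPM in WT libraries, and the other 6 genes of that list summed to 5.45 to 8.13 CPM in MAVS knockout libraries and 6.40 to 16.2 CPM in WT libraries.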

How the data were processed

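RNA from 6 libraries, 3 of MAVS knockout and 3 of WT hosts, was sequenced after Trizol extraction, per the labels' protocols. The authors deposited raw read counts per Ensembl gene as whole numbers. HISAT2, HISAT, HTSeq, DESeq2 and mm10 are named in the submitters' processing notes without roles or versions. The annotation release and the use of strand are unstated, so reads of overlapping or antisense genes could fall to either. Symbols, positions and exon lengths came from GENCODE M21 (mm10), which matched 26383 of 26519 identifiers.

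Differences were tested over the whole table with edgeR 4.0.16 (R 4.3.3) by the quasi-likelihood F test on genotype. Genes were kept by filterByExpr at a minimum count of 10 and a total of 15, scaled by TMM, and adjusted by Benjamini-Hochberg over the 12580 genes kept, at a threshold of 0.05. The procedure was also run on counts simulated with independent genes and an average spread at each level. No result here rests on that run. Alternatives were DESeq2 1.42.0 size factors, its Wald test, limma-voom (limma 3.58.1), library size alone, other filters on low counts, robust dispersion, a replicate block, summed counts of similar members, and leaving out each library. No 2 libraries of a group agreed within sampling noise (chi-square per degree of freedom 15.9 to 38.8). Coding sequences were aligned with Biopython 1.88.

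The members and gene lists were chosen with earlier results of these data known. Named by rule were the members, Mavs, the genes past the threshold and up to 4 of smallest p in each list, and the 3 genes of most similar pattern for each member past the threshold. Lyz2, Ccr3, Ccr8, Epx, Retnla, Cd8b1, H2-Ab1, Cd74, Irf8 and Itgax were named, and the genes left out of marker sums chosen, after their values were seen. One listed receptor is not reported here and was left out of its list's counts.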

Additional observations from a re-analysis of the deposited data

How the results depend on the processing

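The number of members past the threshold, 2 of 10 by edgeR, was followed over 8 other settings and 6 fits without 1 library. It was 5 with no filter on low counts, 3 with the DESeq2 Wald test, 1 with robust dispersion, 4 with the replicate block and 0 to 2 without 1 library. All members called were higher in each fit. Ccl6 passed in 13 of these 14 fits, and Ccl24 in 7. The number of genes past the threshold, 354, was 924 with no filter, 738 with the DESeq2 Wald test and 36 to 277 without 1 library. With library size alone 102 genes were higher and 341 lower, against 222 and 132 with TMM. The count of other CC chemokines, 1, was 0 with library size alone and 0 to 1 without 1 library. That of receptors, 2, was 3 with the DESeq2 Wald test, 1 with library size alone and 0 to 1 without 1 library. The members' median log2 fold change stayed between 0.26 and 0.80; library size alone moved the median of all tested genes to -0.17 and that of the members to 0.29.

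The sign of the log2 fold change turned for 7 genes, none of which passed. With library size alone it was -0.025 for Ccl9 and -0.14 for Lyz2. Without 1 library the values ranged from -0.0063 to 0.56 for Ccl7 (lowest without MAVS knockout replicate 1), -0.19 to 1.20 for Ccl8 (also -0.13), -0.21 to 0.24 for Ccl25 (also 0.17), -0.11 to 0.81 for Ccl27a (also -0.09 and -0.04), -0.15 to 0.12 for Lyz2 (also -0.05) and -1.99 to 0.75 for Retnla (highest without WT replicate 1). The cause was not tested.

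Same-numbered libraries deviated from their group means with correlations of 0.04, 0.09 and -0.04 across genes, and not every library correlated best with its own number, so the replicate block pairs libraries by number only. At this depth and 3 libraries per group, the intervals of Ccl2, Ccl7 and Ccl8 include 0 and changes of 1.5-fold or more.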
